A study of Mus musculus with 18 samples.

Results

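The RNA of 10 receptors that sense lipids, xenobiotics and hormones was followed in the liver of mice that lack lysosomal acid lipase. The receptors were taken by name and not by a rule on their values, though earlier results of these data were known. They are 10 of the 35441 genes listed for the series: Ppara, Ppard, Pparg, Rxra, Nr1i2, Nr1i3, Ahr, Esrra, Thrb and Nr3c1. All 10 passed the filter of more than 100 reads summed over the mice, as did 14533 genes in all. Liver RNA came from 18 male mice that formed 6 groups of 3. WT mice were not treated. Lipa-/- mice lacked exon 4 of Lipa, the gene for lysosomal acid lipase, through the Lipa tm1a allele and a CMV-Cre that acts in the whole body, and were not treated either. Treated Lipa-/- mice had the same deletion and received rAAV8.hAAT.LIPA, a liver-directed viral vector that carries human LIPA with an HA tag under the hepatocyte promoter hAAT, at 10 to 12 weeks of age by the tail vein. Each group was sampled at 12 weeks and at 34 weeks after injection, labelled 3 and 8 months, on a C57/BL6N background. By the study's methods, a single untreated Lipa-/- mouse lived to 34 weeks and the others had been killed on reaching set endpoints. Most of the 34-week Lipa-/- group may thus be younger than its label, which bears on every 34-week comparison with it, and the age of each mouse is not given in the sources used here. The promoter restricts the transgene to hepatocytes, and whole liver was sequenced.

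Most of these proteins are nuclear receptors, transcription factors that bind a small molecule and then change the transcription of their target genes. PPAR-alpha, PPAR-delta and PPAR-gamma bind fatty acids and their derivatives, and like the pregnane X receptor (Nr1i2), the constitutive androstane receptor (Nr1i3) and the thyroid hormone receptor (Thrb) they bind DNA as a pair with a retinoid X receptor, of which Rxra is the main form in the liver. The glucocorticoid receptor (Nr3c1) mostly acts as a pair of its own kind, ESRRA is an orphan receptor that drives mitochondrial genes, and AHR belongs to another protein family, the basic helix-loop-helix PAS factors, and responds to aromatic compounds.

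Library totals lay between 17527848 and 25833134 estimated counts per mouse, and the receptors had between 9 and 8009 of them in a mouse. Values below are CPM, read counts scaled to the library size after TMM factors, unless TPM are named, which are also scaled to transcript length. A difference passed where edgeR's quasi-likelihood test with Benjamini-Hochberg adjustment over all 14533 genes gave an adjusted p under 0.05. The labels held where they could be checked. Mouse Lipa was at 201.9 to 323.4 CPM in the WT mice and at 16.71 to 37.03 CPM in all mice with the deletion. Human LIPA was at 522.9 to 2746 CPM in the treated mice and at 0 in untreated Lipa-/- mice. One WT mouse of the later time had 0.9064 CPM of it. Mice of the 2 times carry different study codes in their labels, so time and code cannot be told apart, and Lipa-/- mouse 5 of the 12-week group has a code of its own.

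Markers of several liver cell types differed in level between the groups. The summed level of 10 macrophage markers was 142.5 to 345.6 CPM in WT mice and 2752 to 6199 CPM in Lipa-/- mice at 12 weeks, and 252.6 to 532.8 against 2259 to 3847 CPM at 34 weeks. In treated mice it was 1021 to 2773 CPM at 12 weeks and 330.3 to 899.5 CPM at 34 weeks. The sum of 10 hepatocyte markers, led by genes such as Alb and Apoa1, was 71010 to 88330 CPM in WT and 45650 to 63660 CPM in Lipa-/- mice at 12 weeks, and 66420 to 85760 against 28170 to 55240 CPM at 34 weeks. Of 6 cholangiocyte markers the sum was 29.42 to 58.67 CPM in WT and 453 to 2234 CPM in Lipa-/- mice at 12 weeks, and 40.72 to 53.01 against 1019 to 1795 CPM at 34 weeks. The sum of 8 lymphocyte markers was also higher in every Lipa-/- mouse than in the WT mice of its time, and that of 8 endothelial markers was lower (83.85 to 104.9 against 172.3 to 221.1 CPM at 12 weeks). Single markers of a list went both ways. Between Lipa-/- and WT mice at 34 weeks, 6 macrophage markers passed as higher and 1 as lower, and 5 lymphocyte markers as higher and 1 as lower. Of the endothelial markers 3 passed as lower and 1 as higher, with a median log2 fold change of 0.05, where 47.3% of all tested genes passed. The defining hepatocyte markers were present in every group, as the label liver requires. In whole liver, fewer cells of a type and less RNA per cell cannot be told apart, and the part of these differences in the results below was not tested.

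Ppara and Thrb were the 2 receptors that passed as lower at both times, so the 250 bases before their annotated starts are shown first, with those of Fabp1 and Cyp1b1, target genes whose levels are given below. They are the entries of RefSeq on GRCm38.p6, which is not the build of the counts (GRCm39), and 8 of the 10 receptors matched an entry. Capitals mark the motif named for each.
Ppara, chr15:85735526-85735775, plus strand: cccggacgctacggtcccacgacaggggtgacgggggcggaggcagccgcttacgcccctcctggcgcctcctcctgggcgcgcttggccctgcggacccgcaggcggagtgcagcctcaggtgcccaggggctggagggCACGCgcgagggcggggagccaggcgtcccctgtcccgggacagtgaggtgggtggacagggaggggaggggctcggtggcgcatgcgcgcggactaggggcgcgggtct
Thrb, chr14:17660710-17660959, plus strand: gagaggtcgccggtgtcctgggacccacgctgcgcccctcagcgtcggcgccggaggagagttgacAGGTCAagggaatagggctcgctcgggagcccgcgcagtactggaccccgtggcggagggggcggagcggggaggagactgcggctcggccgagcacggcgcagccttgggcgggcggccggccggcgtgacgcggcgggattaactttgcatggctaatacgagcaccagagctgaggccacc
Fabp1, chr6:71199629-71199878, plus strand: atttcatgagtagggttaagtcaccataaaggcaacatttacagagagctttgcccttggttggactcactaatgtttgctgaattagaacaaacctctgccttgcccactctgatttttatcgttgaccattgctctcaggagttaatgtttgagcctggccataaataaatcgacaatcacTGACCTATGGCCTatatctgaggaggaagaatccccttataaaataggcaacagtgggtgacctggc
Cyp1b1, chr17:79715062-79715311, minus strand: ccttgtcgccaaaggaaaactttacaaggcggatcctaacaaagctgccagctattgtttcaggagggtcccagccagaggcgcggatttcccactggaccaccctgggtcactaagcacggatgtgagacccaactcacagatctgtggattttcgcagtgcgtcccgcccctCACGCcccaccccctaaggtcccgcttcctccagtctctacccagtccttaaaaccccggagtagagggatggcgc
Both strands were searched. The element that PPAR and RXR bind together was written as AGGNCA, 1 base of any kind and AGGNCA again. It stood in Fabp1 beginning 67 bases before the start, on the opposite strand, in 1 of the 22 genes of a PPARA target list that had an entry, in none of the 8 receptors with one, and in 0.338% of all 32851 windows of this length. The single half-site AGGTCA, which lies within wider motifs of this kind, stood in the Thrb entry shown, 184 bases before the start, but 0 times in the other of the 2 Thrb entries (chr14:17981394-17981643), and in 14% of all windows. That half-site stood in 3 of the 8 receptors with an entry (Pparg, Rxra and Thrb), and in Fabp1. The AHR core GCGTG stood on the opposite strand in Ppara, 110 bases before the start, and in Cyp1b1, 76 bases before it, and in 28.2% of all windows. It stood in 5 of the 8 receptors (Esrra, Ppara, Ppard, Pparg and Thrb), and is not marked in the Thrb bases shown. These are matches of letters, not bound sites.

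Levels of different receptors were compared per length. In WT mice at 12 weeks the mean TPM was 44.2 for Nr1i3, 38.5 for Rxra, 18.7 for Esrra, 18.4 for Nr1i2, 16.9 for Ppara, 8.25 for Nr3c1, 6.75 for Ppard, 4.36 for Thrb, 3.07 for Pparg and 2.83 for Ahr. The ranges of the 3 mice overlapped between all neighbours in this order except Ppara and Nr3c1. At 34 weeks in Lipa-/- mice Rxra led with a mean of 50 TPM, and Ppara, at rank 5 in the 12-week WT mice and rank 3 in the 34-week WT mice, was at rank 9 with 7.7 TPM. In treated mice of 12 weeks Ppara was at rank 1 with 33 TPM and Rxra at rank 5 with 9.72 TPM. Thrb was last in Lipa-/- mice of 34 weeks with 2.08 TPM, and its range did not overlap that of Ppara.

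**Figure D1:**
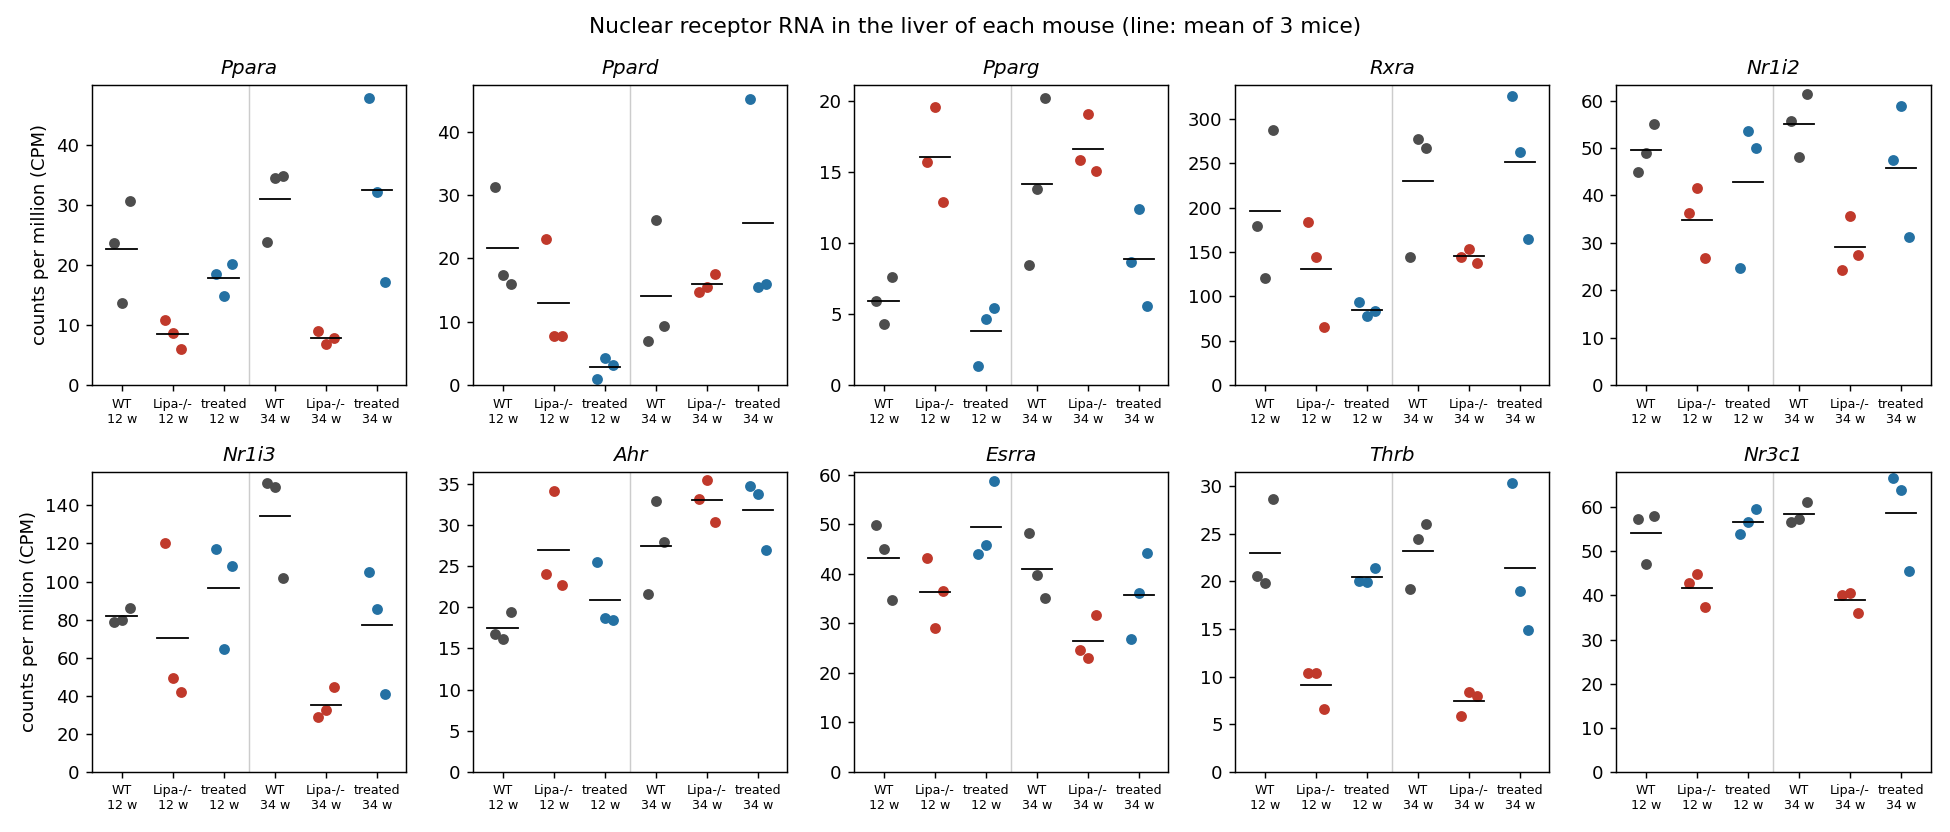
CPM of each receptor in each mouse (y axis, linear from 0, own scale per gene) for WT (grey), Lipa-/- (red) and treated Lipa-/- mice (blue) at 12 and 34 weeks, 3 mice a group, with a line at the mean. The Lipa-/- mice lie below all WT mice for Ppara, Thrb, Nr1i2 and Nr3c1 at both times, of which Nr1i2 and Nr3c1 passed the test only at 34 weeks. The treated mice of 12 weeks lie below all WT mice for Ppard and Rxra. The share of all tested genes without overlap is not given here.

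The first question was what the loss of lysosomal acid lipase did to these receptors. At 12 weeks 4 of 10 passed between Lipa-/- and WT mice, with Ppara and Thrb lower and Pparg and Ahr higher, where 39.2% of all tested genes passed, 22.9% higher and 16.3% lower. At 34 weeks 6 of 10 passed, all lower: Ppara, Nr1i3, Thrb, Nr1i2, Esrra and Nr3c1, where 47.3% of all tested genes passed and 23.5% were lower. The median log2 fold change of the 10 was -0.44 at 12 weeks and -0.65 at 34 weeks, beside 0.02 and -0.03 over all tested genes. With the study's rule of an absolute log2 fold change over 1 as well, 3 receptors passed at each time, where 29.3% and 36.3% of genes did. No receptor passed the test of a different effect at the 2 times in Lipa-/- mice, with 0 of 10 at an adjusted p under 0.05 and 2 at an unadjusted p under 0.05 (Pparg and Nr1i3), and DESeq2 also called 0. Only 0.0619% of genes passed that test.

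The second question was what the vector did. In treated against untreated Lipa-/- mice, 5 receptors passed at 12 weeks, with Ppara, Thrb and Nr3c1 higher and Ppard and Pparg lower (54.3% of genes passed, 23.8% higher and 30.4% lower), and 4 passed at 34 weeks, all higher, namely Ppara, Thrb, Nr1i3 and Nr3c1 (41.1% of genes, 19.6% higher). Against WT mice, 2 receptors were lower in treated mice at 12 weeks, Ppard and Rxra (36.8% of genes passed, 17.5% lower). At 34 weeks edgeR called 0 of 10, 0 receptors had an unadjusted p under 0.05, and DESeq2 called 0 as well, where 0.22% of genes passed. The comparisons share the WT or the Lipa-/- mice, so their values are not independent of each other.

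**Figure D2:**
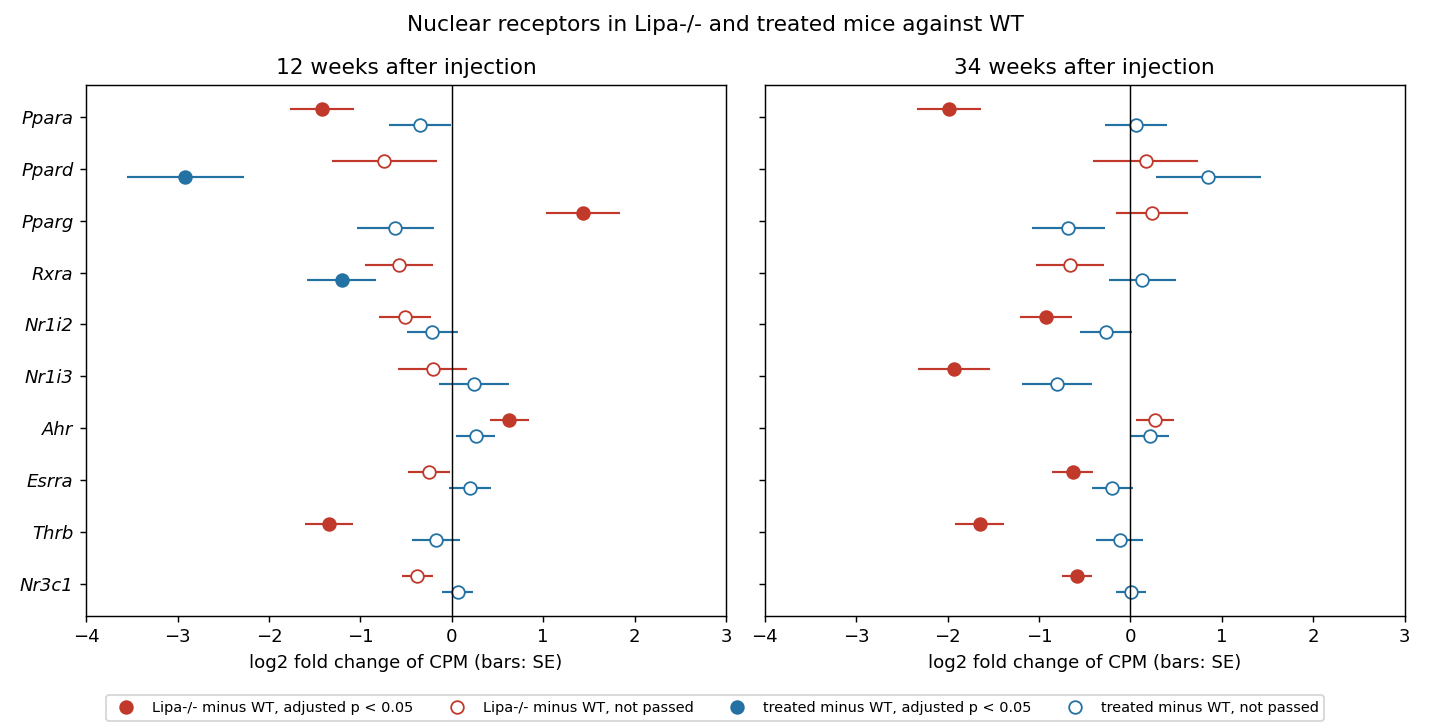
Log2 fold change of CPM against WT (x axis, bars are standard errors) for each receptor (y axis), in Lipa-/- (red) and treated Lipa-/- mice (blue) at 12 weeks (left) and 34 weeks (right). Filled points passed an adjusted p of 0.05. At 34 weeks the 6 filled points are all red and all left of 0, and none of the treated values is filled.

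Ppara, the receptor that turns on fatty acid oxidation and ketone synthesis in the fasting liver, lies at chr15:85618656-85687067 on the plus strand (GRCm39, GENCODE). At 12 weeks it was at 23.69, 13.69 and 30.57 CPM in the WT mice and at 10.75, 8.622 and 5.981 CPM in the Lipa-/- mice. At 34 weeks the WT mice had 23.77, 34.52 and 34.84 CPM and the Lipa-/- mice 9.05, 6.763 and 7.792 CPM. No Lipa-/- mouse reached the lowest WT mouse of its time. Ppara fell by 1.42 ± 0.35 on the log2 scale (SE, n = 3 a group, edgeR adjusted p = 0.00371), or 2.68-fold, at 12 weeks and by 1.98 ± 0.35 (edgeR adjusted p = 0.000202), or 3.94-fold, at 34 weeks. Both held without any 1 mouse, but the 12-week fall had an adjusted p of 0.0534 when libraries were scaled to total counts in edgeR and 0.0942 on TPM in limma.

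The treated mice had 18.46, 14.78 and 20.09 CPM of Ppara at 12 weeks and 47.88, 32.18 and 17.24 CPM at 34 weeks, and did not overlap the untreated Lipa-/- mice at either time. Ppara was 2.1-fold higher than in untreated mice at 12 weeks (log2 1.07 ± 0.35, edgeR adjusted p = 0.0158, n = 3 a group) and 4.12-fold higher at 34 weeks (log2 2.04 ± 0.35, edgeR adjusted p = 0.000204). The 12-week difference did not pass without Lipa-/- mouse 9 or without treated mouse 12, while the 34-week one passed without any 1 mouse. At 12 weeks it was also lost with total-count scaling (log2 0.18, adjusted p = 0.692) and with the trend with GC content and length removed (log2 0.86, adjusted p = 0.0778), both in edgeR. Against WT mice, the read counts differed by -0.35 ± 0.34 at 12 weeks and 0.06 ± 0.34 at 34 weeks on the log2 scale, and neither passed.

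The read counts of Ppara in treated mice at 12 weeks came with a shorter effective length. The effective length of a gene is the mean over its transcripts, weighted by their estimated abundance, of the length from which a fragment can start. It was 219.6, 331.7 and 322.9 bases in the 3 treated mice against 1097, 675.2 and 1712 bases in the WT mice, 557.8 to 1084 bases in Lipa-/- mice of that time, and 567.3 to 2015 bases in all mice of 34 weeks. Of all tested genes, 0.0688% had a stronger shortening than Ppara between treated and WT mice at 12 weeks. In that comparison 1.49% of tested genes shortened by more than 1 on the log2 scale. The share was 0.743% between treated and untreated mice at 12 weeks and 0.1445% between treated and WT mice at 34 weeks. Ppara has 34 transcripts of 315 to 3551 bases in GENCODE, which is not the Ensembl transcript set behind the deposited lengths. An effective length is shorter than the full length, so the values in treated mice cannot be matched to single entries of this range. Its short entries include those of 315, 360 and 367 bases, with no defined coding sequence, and coding ones of 574 to 682 bases. Levels of single transcripts were not analysed here.

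With this length taken into account the sign turned. Ppara was at 37.68, 28.65 and 32.7 TPM in treated mice at 12 weeks, above the 15.02 to 18.22 TPM of the WT mice and the 9.028 to 13.51 TPM of the Lipa-/- mice. The log2 difference from WT was 1.61 in edgeR with length offsets (adjusted p = 0.00272), 1.66 in DESeq2 with length offsets (adjusted p = 8.58e-06) and 0.96 in limma on log2(TPM + 0.1) (adjusted p = 0.0129). By counts, Ppara rose by 0.87 ± 0.34 from 12 to 34 weeks in treated mice (edgeR adjusted p = 0.0472), which passed in 1 of 6 analyses that left out a mouse, whereas with length offsets it fell by 1.4 in edgeR (adjusted p = 0.00217). The falls in Lipa-/- mice did not turn with the length. They were -1.08 at 12 weeks in edgeR with length offsets (adjusted p = 0.00793), and across all alternatives ranged from -2.64 to -1.36 at 34 weeks.

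**Figure D3:**
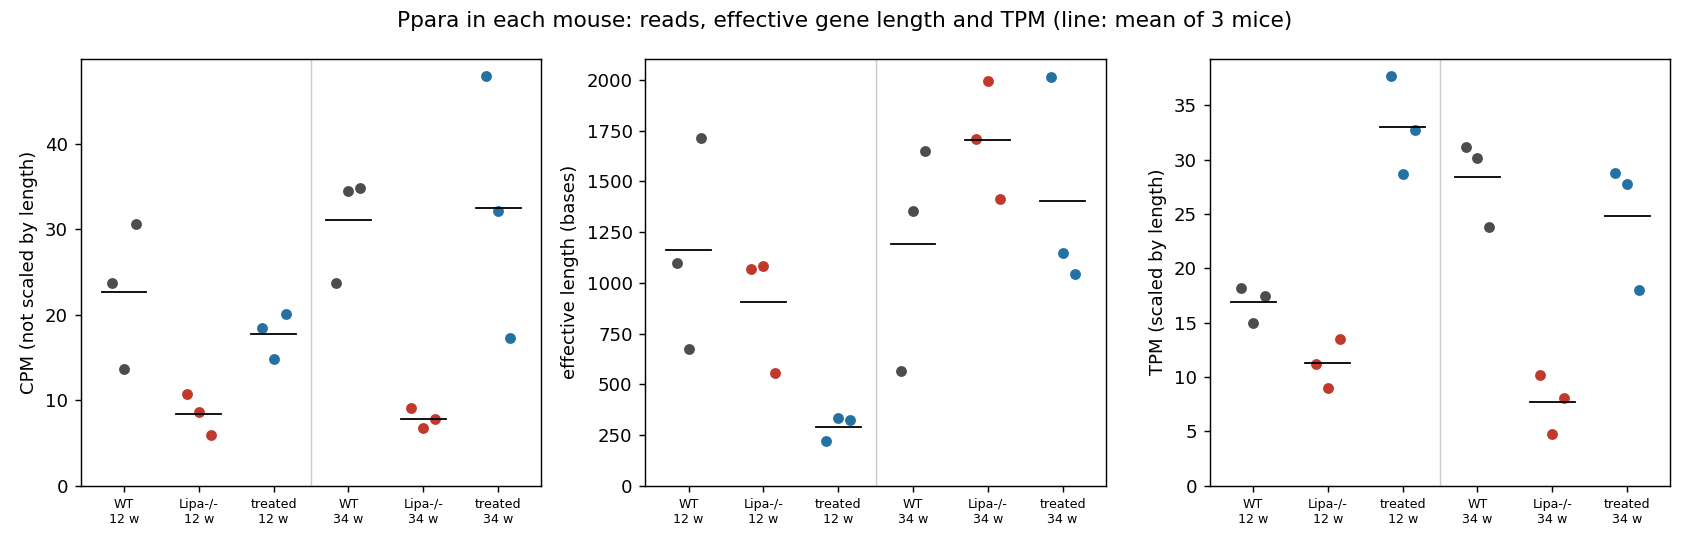
Ppara in each mouse as CPM (left), effective length in bases (middle) and TPM (right), with a line at the mean of 3 mice, for WT (grey), Lipa-/- (red) and treated Lipa-/- mice (blue). The treated mice of 12 weeks have the shortest effective length, 219.6 to 331.7 bases, and the highest mean TPM of the 6 groups, 33, with a CPM below the WT mean.

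A list of 30 PPARA target genes, written from general knowledge, was tested. In Lipa-/- mice 20 were lower and 1 higher at 12 weeks, with a median log2 fold change of -1.13, and 25 were lower and 1 higher at 34 weeks, with a median of -2.1. Of all tested genes 16.3% and 23.5% were lower, and 39.2% and 47.3% passed in either direction, which is the background for the edgeR counts of this and the other lists. On TPM 12 and 23 targets were lower. For counts on TPM, here and in the other lists, no share of all genes is given. The median of all genes on TPM was 0.47 and 0.66 in Lipa-/- against WT mice at 12 and 34 weeks. The falls included genes of peroxisomal and mitochondrial oxidation: Ehhadh, an enzyme of peroxisomal oxidation, fell by 1.58 and 2.28, Cpt2 of the carnitine shuttle by 1.6 and 2.38, and Acadm, a mitochondrial acyl-CoA dehydrogenase, by 1.04 and 1.99 on the log2 scale at 12 and 34 weeks. Fabp1, a fatty acid carrier whose upstream bases are shown above, lay between 3557 and 3754 CPM in WT and between 391.8 and 738.5 CPM in Lipa-/- mice at 12 weeks, and between 3246 and 5600 against 180.5 and 291.3 CPM at 34 weeks.

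The largest falls of the list at 34 weeks were in 2 fatty acid hydroxylases. Cyp4a14 had a mean of 339.7 CPM in WT and 0.1011 CPM in Lipa-/- mice at 34 weeks, and Cyp4a10 203.7 against 1.353 CPM. These genes and Acot1 (log2 -4.27 ± 0.67 and -4.63 ± 0.68) belong to families of near-identical copies, so reads may be split among them. The 1 gene that rose was Slc27a1, a fatty acid transporter better known from muscle, fat and other tissues, by 3.21 ± 0.26 and 3.03 ± 0.25 (edgeR adjusted p = 1.38e-07 and 1.87e-07, n = 3 a group).

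In treated mice, 0 of these 30 targets were higher than in WT at either time in edgeR, with a median of -0.07 at 12 weeks and -0.64 at 34 weeks. Of all tested genes 36.8% passed against WT at 12 weeks, 17.5% as lower, and 0.22% passed at 34 weeks. The 1 lower at 12 weeks was Cpt1a (log2 -1.18), and the 2 lower at 34 weeks were Acot3 (log2 -3.4) and Vnn1 (log2 -2.29), genes named here after their values were seen. Without any 1 mouse these counts ranged from 0 to 4 at 12 weeks, with 0 without WT mouse 3 or treated mouse 10, and from 0 to 2 at 34 weeks, with 0 without WT mouse 3 or treated mouse 9 or 12. Against untreated Lipa-/- mice, 19 were higher and 2 lower at 12 weeks, and 22 higher and 1 lower at 34 weeks. Of all tested genes 23.8% were higher and 30.4% lower in that comparison at 12 weeks, and 19.6% were higher at 34 weeks. The 12-week counts depend on the scale. On TPM, where the median of all genes was -0.47 against WT and -1.11 against untreated mice, 12 targets were lower and 0 higher than in WT, and 2 were higher than in untreated mice.

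Ppard, the form of PPAR found in most tissues (chr17:28451674-28520448, plus strand), was at 31.35, 17.42 and 15.97 CPM in WT, 23.07, 7.806 and 7.8 in Lipa-/- and 0.8745, 4.293 and 3.143 CPM in treated mice at 12 weeks. At 34 weeks the values were 7.019, 26.13 and 9.264 CPM in WT, 14.66, 15.46 and 17.57 in Lipa-/- and 45.2, 15.52 and 15.91 CPM in treated mice. The treated mice of 12 weeks lay below every other mouse of the series. Ppard was 7.54-fold lower there than in WT (log2 -2.92 ± 0.64, edgeR adjusted p = 0.00523, n = 3 a group), and this passed without any 1 mouse and in all 9 other analyses. It was 4.52-fold lower than in untreated mice (edgeR adjusted p = 0.00817), though not past the threshold without Lipa-/- mouse 5 (adjusted p = 0.0642). In treated mice it was 8.94-fold higher at 34 than at 12 weeks (log2 3.16 ± 0.64, edgeR adjusted p = 0.00188). Lipa-/- and WT mice did not differ past the threshold, with -0.74 ± 0.57 at 12 weeks and 0.16 ± 0.57 at 34 weeks.

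Pparg, which drives lipid storage in fat cells and is also used by macrophages, lies at chr6:115337675-115468268 on the plus strand. WT mice had 5.895, 4.307 and 7.591 CPM at 12 weeks and Lipa-/- mice 15.69, 19.57 and 12.85 CPM, with no overlap. Pparg rose 2.71-fold (log2 1.44 ± 0.41, edgeR adjusted p = 0.0101, n = 3 a group), and this passed without any 1 mouse. Treated mice had 1.36, 4.619 and 5.443 CPM, 4.15-fold lower than the untreated ones (edgeR adjusted p = 0.000838). At 34 weeks the WT mice themselves were at 8.435, 13.75 and 20.16 CPM and overlapped the Lipa-/- mice at 15.8, 19.05 and 15.03 CPM, and the difference was 0.23 ± 0.39. Treated mice had 8.658, 12.35 and 5.525 CPM. Their difference from untreated mice, -0.91 ± 0.4, had an edgeR adjusted p of 0.0783. It passed in 4 of 9 other analyses (upper-quartile scaling, total counts, TPM and only the groups compared, log2 -1.48 to -0.96) and without treated mouse 11. Their rise of 1.19 ± 0.42 since 12 weeks passed (adjusted p = 0.0295) with all mice but not without treated mouse 10 of 12 weeks or mice 9 or 11 of 34 weeks.

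Of 13 tested PPARG targets, 4 rose and 5 fell in Lipa-/- mice at 12 weeks, and 3 rose and 7 fell at 34 weeks, with medians of 0.68 and -0.91. The 12-week falls were 3 without WT mouse 1 or 3 or Lipa-/- mouse 9, and 2 on TPM. Lpl, which releases fatty acids from lipoproteins, rose from a mean of 15.5 to 566.6 CPM at 12 weeks and from 16.7 to 669.4 CPM at 34 weeks (log2 5.19 ± 0.3 and 5.32 ± 0.3). Fabp4, a lipid carrier of fat cells and macrophages, rose by 3.3 ± 0.35 and 3.4 ± 0.35, and Ucp2, a mitochondrial carrier also abundant in macrophages, by 3.44 ± 0.51 and 2.35 ± 0.49. The genes that fell included Mogat1 of triglyceride synthesis and Acsl1, which activates fatty acids (log2 -2.19 ± 0.36 and -2.77 ± 0.37). Cidea, a lipid droplet protein, went from a mean of 35.1 to 0.95 CPM at 34 weeks and was 0.493 CPM in treated mice of that time. The summed macrophage markers were higher in the same mice, and their part in these rises was not tested.

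Rxra (chr2:27566452-27653330, plus strand) was at 179.6, 120.8 and 287.6 CPM in WT, 184.1, 144.2 and 65.51 in Lipa-/- and 93.57, 77.82 and 83.72 CPM in treated mice at 12 weeks. It was at 144, 277.3 and 267.8 CPM in WT, 144.4, 153.8 and 137.5 in Lipa-/- and 325.5, 263.2 and 165.2 CPM in treated mice at 34 weeks. The differences between Lipa-/- and WT mice, -0.58 ± 0.37 and -0.66 ± 0.37 on the log2 scale, did not pass, and the groups overlapped at both times. Treated mice of 12 weeks were all below WT, 2.31-fold (log2 -1.21 ± 0.38, edgeR adjusted p = 0.0214, n = 3 a group). This did not pass without WT mouse 3 or without treated mouse 11, nor in edgeR once a trend with GC content and length was removed. Their difference from untreated mice did not pass, except with total counts (log2 -1.51) and on TPM (log2 -1.63) and without Lipa-/- mouse 9. Rxra was 2.96-fold higher in treated mice at 34 than at 12 weeks (edgeR adjusted p = 0.00407), which passed without any 1 mouse.

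Esrra, Ppard and Rxra are GC-rich: 98.4%, 95.9% and 90.4% of tested genes have a lower GC content. Between treated and WT mice at 12 weeks Ppard and Rxra passed as lower, and Esrra did not pass (log2 0.2 ± 0.23). With the trend with GC content and length removed in edgeR, Esrra passed as higher (log2 0.88, adjusted p = 0.0171). Rxra no longer passed there, and Ppard still did. The part of GC content in these differences was not tested. Across genes, the log2 fold change between treated and WT mice at 12 weeks went down with GC content (Spearman rho -0.239) and with transcript length (rho -0.33), as a description over genes that share libraries.

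Of the xenobiotic receptors, Nr1i3 and Nr1i2 passed as lower in Lipa-/- mice at 34 weeks and Ahr did not. Nr1i3, the constitutive androstane receptor that induces drug-metabolizing enzymes, lies at chr1:171041506-171048270 on the plus strand. At 34 weeks the WT mice had 151.6, 149.9 and 102.1 CPM and the Lipa-/- mice 28.85, 32.54 and 44.58 CPM. Nr1i3 was 3.81-fold lower (log2 -1.93 ± 0.39, edgeR adjusted p = 0.000717, n = 3 a group), and this passed without any 1 mouse and in all 9 other analyses. At 12 weeks the Lipa-/- mice were split, with 120.5 CPM in mouse 5 and 49.28 and 41.87 CPM in the others, against 78.94, 79.72 and 86.22 CPM in WT. The difference there was -0.21 ± 0.38, and -0.84 without mouse 5 (adjusted p = 0.0744). The test of the difference between the times gave -1.72 ± 0.54 with an adjusted p of 0.271, so the effect is not shown to differ. Treated mice of 34 weeks had 104.8, 85.72 and 40.66 CPM, 2.18-fold above the untreated mice (edgeR adjusted p = 0.0274), but with an overlap and not past the threshold without Lipa-/- mouse 4 or 5 or treated mouse 9 or 11, with total counts or on TPM. At 12 weeks the treated mice had 117.1, 64.77 and 107.9 CPM and did not differ past the threshold from either group, though they did from untreated mice without Lipa-/- mouse 5 (log2 1.08, edgeR adjusted p = 0.0211).

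Of 14 tested CAR targets, 7 fell and 4 rose in Lipa-/- mice at 12 weeks and 9 fell and 3 rose at 34 weeks, with medians of -1.13 and -2.58. Named falls were in cytochrome P450 genes. Cyp2b10, the classic CAR target, had 1.179 to 2.984 CPM in WT and at most 0.1774 CPM in Lipa-/- mice at 12 weeks. At 34 weeks it had 2.168 to 6.228 CPM in WT and was at 0 in all 3 Lipa-/- mice, at least 37.8-fold lower against a floor of 3 reads per library. Cyp2c29 fell from a mean of 1086 to 78.3 CPM and from 884 to 32.3 CPM. These P450 genes have near-identical copies and their single values are uncertain. Among the genes that rose, Gadd45b, a stress response gene, did so by 5.3 ± 0.39 and 4.62 ± 0.37, and Akr1b7, an aldose reductase, from a mean of 0.119 to 2.62 CPM and from 0.3 to 3.68 CPM. The causes of these falls and rises were not tested. In treated mice at 34 weeks 1 of the 14 passed against WT, where 0.22% of all tested genes did. This was Cyp2b9, which was at a mean of 0.187 CPM against 34.6 CPM, and it did not pass when WT mouse 3 or any 1 treated mouse was left out.

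Nr1i2, the pregnane X receptor that senses drugs and bile acids (chr16:38068685-38115216, minus strand), was at 55.8, 48.08 and 61.46 CPM in WT and at 24.34, 35.59 and 27.42 CPM in Lipa-/- mice at 34 weeks. It was 1.89-fold lower (log2 -0.92 ± 0.28, edgeR adjusted p = 0.0131, n = 3 a group), though not past the threshold without Lipa-/- mouse 4, with total-count scaling or on TPM. At 12 weeks the WT mice had 45.01, 49.05 and 54.97 CPM and the Lipa-/- mice 36.37, 41.48 and 26.75 CPM, which did not overlap but did not pass (log2 -0.51 ± 0.28). Treated mice had 24.78, 53.63 and 50.06 CPM at 12 weeks and 47.48, 58.95 and 31.17 CPM at 34 weeks, and did not pass against either group. On TPM those of 12 weeks passed as lower than WT (log2 -0.95) and untreated mice (log2 -0.89), and at 34 weeks they passed as higher than untreated mice without treated mouse 12 or with the trend with GC content and length removed (log2 0.74). Of 11 tested PXR targets, 2 rose and 1 fell at 12 weeks, and 4 fell at 34 weeks, with medians of 0.07 and -0.73. These 3 and 4 of 11 stand beside the 39.2% and 47.3% of all tested genes that passed. The 12-week counts changed to 1 rise without WT mouse 1 and to 2 falls without WT mouse 1 or 2 or Lipa-/- mouse 8. Ces2a, a drug-hydrolysing carboxylesterase, fell from a mean of 233 to 42.3 CPM and from 157.7 to 23.6 CPM, and was at 191 and 156.5 CPM in treated mice. Cyp3a25 fell by 2.76 ± 0.23 at 34 weeks. The 2 that rose at 12 weeks were the transporters Abcb1a (log2 1.77 ± 0.52) and Slco1a4 (log2 1.73 ± 0.4).

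Ahr (chr12:35547973-35585057, minus strand) rose in Lipa-/- mice at 12 weeks. The WT mice had 16.72, 16.13 and 19.42 CPM and the Lipa-/- mice 24.02, 34.18 and 22.71 CPM at 12 weeks, with no overlap, a rise of 1.55-fold (log2 0.63 ± 0.21, edgeR adjusted p = 0.0242, n = 3 a group). It did not pass without WT mouse 1, WT mouse 2 or Lipa-/- mouse 8, where the log2 values remained between 0.427 and 0.742 over all mice left out. At 34 weeks the WT mice had 21.59, 32.91 and 27.99 CPM, the Lipa-/- mice 33.2, 35.51 and 30.4 CPM and the treated mice 34.71, 33.82 and 26.96 CPM, all overlapping, and Lipa-/- and WT mice differed by 0.26 (edgeR adjusted p = 0.315). That difference passed as a rise with total counts (log2 0.87, edgeR adjusted p = 0.0073) and on TPM (log2 0.94, limma adjusted p = 0.0193), scales on which the median of all genes stood at 0.6 and 0.66. Treated mice of 12 weeks had 25.55, 18.64 and 18.48 CPM. They did not pass against untreated mice in edgeR, but did so as lower with total counts (log2 -1.25), on TPM (log2 -1.46), with the trend with GC content and length removed (log2 -0.65) and without treated mouse 10 (log2 -0.57). In treated mice Ahr was 1.53-fold higher at 34 than at 12 weeks (edgeR adjusted p = 0.0265), which passed in 2 of 6 analyses that left out a mouse.

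Of 8 tested AHR targets, 2 rose and 2 fell at 12 weeks and 1 rose and 2 fell at 34 weeks, with medians of 0.42 and -0.1. These 4 and 3 of 8 stand beside 39.2% and 47.3% of all tested genes. Without WT mouse 3 or Lipa-/- mouse 9, 1 rose at 12 weeks. Cyp1b1, a P450 of mesenchymal and other non-hepatocyte cells, rose from a mean of 0.274 CPM, near the floor of 3 reads (0.0946 to 0.292 CPM per library), to 14.6 CPM at 12 weeks and from 0.497 to 41.1 CPM at 34 weeks. Cyp1a2, the P450 of this family in hepatocytes, fell from 661.5 to 190.3 CPM and from 272.3 to 28.9 CPM (log2 -1.8 ± 0.32 and -3.23 ± 0.34). Ugt1a6a fell by 1.45 ± 0.26 and 2.13 ± 0.26, and Nqo1 rose by 1.34 ± 0.42 at 12 weeks and differed by 0.22 ± 0.41 at 34 weeks. In treated mice of 34 weeks Cyp1a2 was at 435.3 CPM and Cyp1b1 at 0.812 CPM, neither past the threshold against WT. The sum of 8 stellate cell markers was 123.9 to 216.7 CPM in WT and 470.7 to 636.7 CPM in Lipa-/- mice at 12 weeks and 197.9 to 239 against 761.1 to 1305 CPM at 34 weeks, and its part in the rise of Cyp1b1 was not tested. Of these 8 markers, 4 passed as higher and 1 as lower at 12 weeks, and 5 as higher and 2 as lower at 34 weeks.

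Thrb, the main thyroid hormone receptor of hepatocytes, lies at chr14:4429815-4809435 on the minus strand of GRCm39. At 12 weeks it was at 20.58, 19.81 and 28.69 CPM in WT and at 10.36, 10.33 and 6.587 CPM in Lipa-/- mice, and at 34 weeks at 19.17, 24.43 and 26.08 against 5.897, 8.347 and 7.976 CPM. Every Lipa-/- mouse lay well under every WT mouse. Thrb was 2.53-fold lower at 12 weeks (log2 -1.34 ± 0.26, edgeR adjusted p = 0.000722, n = 3 a group) and 3.14-fold lower at 34 weeks (log2 -1.65 ± 0.27, edgeR adjusted p = 8.56e-05), and both passed without any 1 mouse. On TPM the 12-week value did not pass (limma adjusted p = 0.0563). Treated mice had 20.02, 19.94 and 21.39 CPM at 12 weeks and 30.32, 18.96 and 14.94 CPM at 34 weeks. They were 2.25-fold and 2.89-fold above the untreated mice (edgeR adjusted p = 0.00162 and 0.000218) and differed from WT by -0.17 ± 0.26 and -0.12 ± 0.26 on the log2 scale, which did not pass. The 12-week values depended on the scale. The difference from the untreated mice was 0.3 with total counts (edgeR adjusted p = 0.388), 0.18 with the trend with GC content and length removed (edgeR adjusted p = 0.731) and -0.07 on TPM (limma adjusted p = 0.875), where the median of all genes was -1.11. Thrb passed as lower than in WT on TPM (log2 -1.05, limma adjusted p = 0.0423) and with the trend with GC content and length removed (log2 -1.1, edgeR adjusted p = 0.0488). The 34-week difference from untreated mice passed in all 9 other analyses.

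Of 10 THRB targets, 4 fell and 0 rose at 12 weeks and 5 fell and 0 rose at 34 weeks in edgeR, with medians of -0.43 and -1.29. On TPM 2 fell at 12 weeks. Thrsp, an inducer of lipogenesis, went from a mean of 911.4 to 69.6 CPM and from 456.8 to 21.5 CPM, Me1, the malic enzyme, which makes NADPH, from 398.5 to 30.4 and from 545 to 21.8 CPM, and Fasn, the fatty acid synthase, fell by 1.76 and 2.96 on the log2 scale. Gpd2, a mitochondrial glycerol phosphate dehydrogenase, fell by 1.33 and 1.55, and the deiodinase Dio1, which activates thyroid hormone, fell by 1.59 at 34 weeks. Several of these genes also answer to insulin and sterol signals. In treated mice of 34 weeks Thrsp and Me1 were at 427.9 and 337.4 CPM. Among treated mice at 12 weeks, where 17.5% of all tested genes were lower than in WT, 4 of these 10 targets were. They included Fasn and Gpd2 (log2 -2.49 and -0.89), which had also fallen in untreated mice, and Bcl3 (log2 -1.63), which had not passed there, and Dio1 was higher (log2 1.06), but not without WT mouse 2 or 3 or treated mouse 10 or 12.

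Nr3c1, the glucocorticoid receptor, was at 57.29, 47.23 and 57.95 CPM in WT and 42.9, 44.78 and 37.42 CPM in Lipa-/- mice at 12 weeks (log2 -0.38 ± 0.17, edgeR adjusted p = 0.0876, n = 3 a group). At 34 weeks it was at 56.69, 57.26 and 61.11 against 40.11, 40.54 and 36.09 CPM, 1.5-fold lower (edgeR adjusted p = 0.00904). The 34-week fall passed without any 1 mouse, but was lost with upper-quartile scaling (adjusted p = 0.0532) and with the trend with GC content and length removed (adjusted p = 0.14), and came to 0.05 with total counts and 0.06 on TPM (log2). Treated mice had 53.93, 56.57 and 59.57 CPM at 12 weeks and 66.54, 63.97 and 45.44 CPM at 34 weeks. They were 1.36-fold and 1.51-fold above the untreated mice (edgeR adjusted p = 0.0356 and 0.00972), but the 12-week value passed in 1 of 6 analyses that left out a mouse and was lost in 7 of 9 others, and on TPM it passed with the opposite sign (log2 -0.72, limma adjusted p = 0.0387). The 34-week one passed without any 1 mouse but was lost with total counts (log2 0.04, adjusted p = 0.893), on TPM (log2 0.07, adjusted p = 0.868) and with the trend with GC content and length removed (log2 0.44, adjusted p = 0.0735).

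Of 17 tested targets of this receptor, 7 rose and 3 fell at 12 weeks and 9 rose and 2 fell at 34 weeks, with medians of 0.13 and 1.42. Without Lipa-/- mouse 4 or 6, 1 fell at 34 weeks. The genes with the largest rises were Lcn2 and Sult1e1 at 12 weeks and Sult1e1 and Mt2 at 34 weeks. Lcn2, an iron-binding acute-phase protein made by hepatocytes and neutrophils, went from a mean of 2.64 to 1928 CPM and from 26.5 to 1991 CPM, Mt2, a metallothionein, from 2.93 to 511.5 and from 2.27 to 521 CPM, and Sult1e1, an estrogen sulfotransferase, from 0.204 to 48.2 and from 0.183 to 64.3 CPM. The amino acid enzymes Tdo2 and Tat, both typical of hepatocytes, fell, Tdo2 by 2.41 ± 0.31 and 3.28 ± 0.32 and Tat by 1.5 ± 0.37 and 1.15 ± 0.36. The summed neutrophil markers were 0.628 to 2.3 CPM in WT, where 4 of 7 were at or below the floor, and 122.5 to 1601 CPM in Lipa-/- mice at 12 weeks, and their part in the rise of Lcn2 was not tested. Of the receptor's chaperones and the AHR partners, Fkbp5, itself a glucocorticoid target, rose by 1.47 ± 0.41 and 1.42 ± 0.41, the former not without Lipa-/- mouse 5, and Fkbp4 fell by 1.29 ± 0.23 and 1.7 ± 0.24.

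Esrra (chr19:6888338-6899336, minus strand) was at 49.84, 45.03 and 34.65 CPM in WT and 43.26, 29.01 and 36.49 CPM in Lipa-/- mice at 12 weeks, and at 48.19, 39.69 and 35.15 against 24.6, 22.96 and 31.72 CPM at 34 weeks. The 34-week fall of 0.63 ± 0.23 on the log2 scale (edgeR adjusted p = 0.031, n = 3 a group) passed in only 2 of 6 analyses without a mouse and had the opposite sign with total-count scaling (log2 0.01) and on TPM (log2 0.08). Treated mice had 44.01, 45.86 and 58.88 CPM at 12 weeks and 26.87, 36.11 and 44.28 CPM at 34 weeks, and passed against neither group. With the trend with GC content and length removed in edgeR, they passed as higher than WT at 12 weeks (log2 0.88, adjusted p = 0.0171) and than untreated mice at 12 weeks (log2 1.47, adjusted p = 0.000243) and 34 weeks (log2 0.73, adjusted p = 0.0266). On TPM they passed as lower than untreated mice at 12 weeks (log2 -0.7, limma adjusted p = 0.0169), so the direction turns with the scale. Of 14 mitochondrial targets of ESRRA, 7 fell and 0 rose at 12 weeks in edgeR, where 16.3% of all tested genes fell, and 11 fell and 1 rose at 34 weeks, where 23.5% fell, with medians of -0.73 and -1.25. Sdha, a subunit of succinate dehydrogenase, fell by 1.46 ± 0.27 and 1.66 ± 0.27, Ndufs1 of complex I by 1.2 ± 0.2 and 1.61 ± 0.2, and Sdhb by 0.86 ± 0.25 and 1.74 ± 0.26. On TPM the counts of lower genes were 1 and 4. The 1 gene that rose at 34 weeks, Perm1, had a mean of 0.755 CPM in Lipa-/- mice and did not pass when any 1 of them was left out. Acadm and Pdk4 stood in both this list and that of PPARA.

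**Figure D4:**
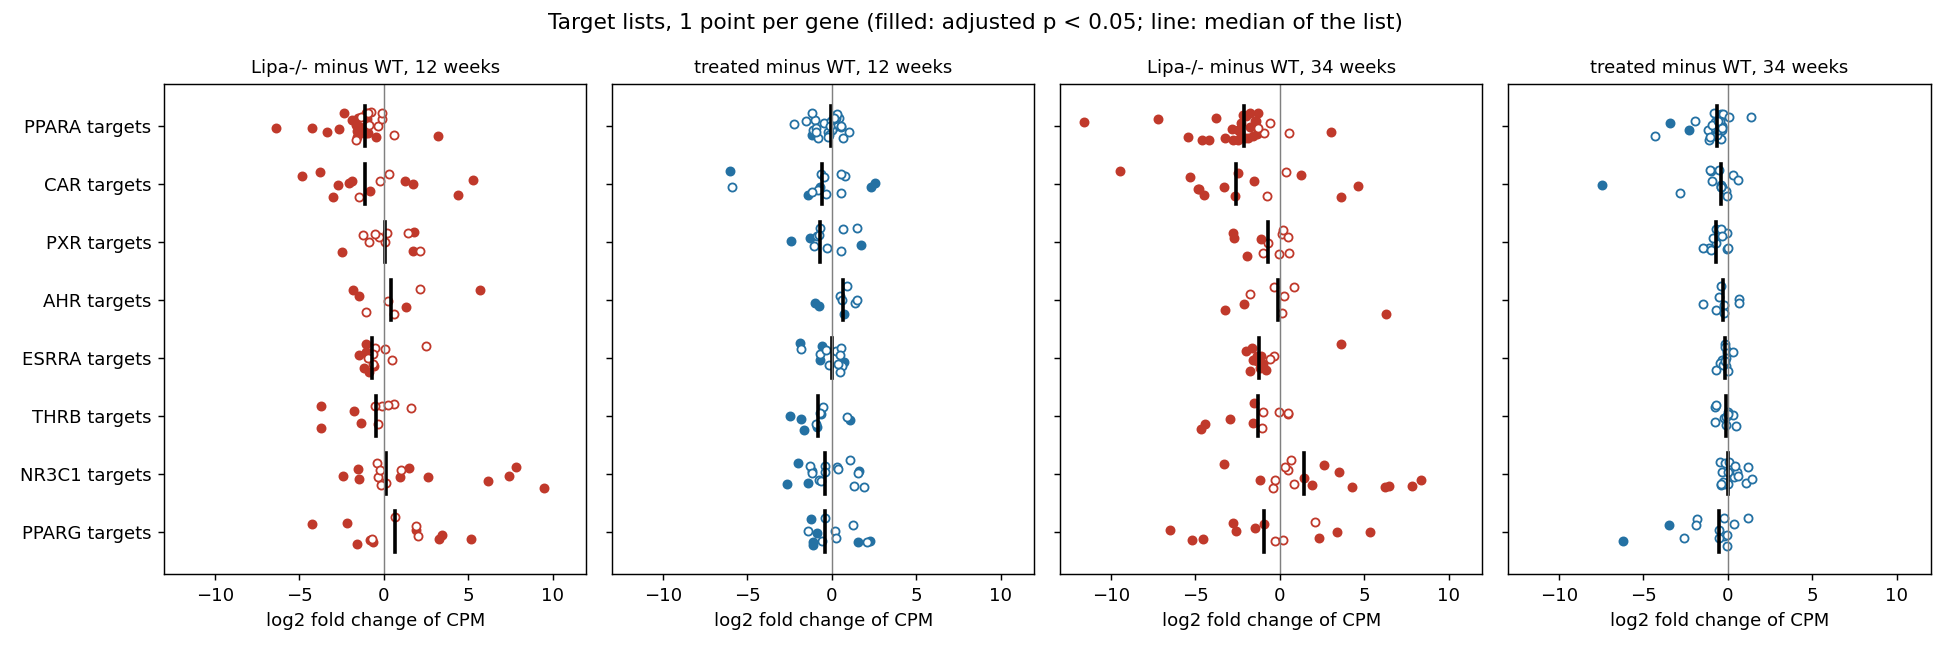
Log2 fold change of CPM against WT (x axis) of each tested gene in 8 target lists (y axis, points spread vertically within a list), in Lipa-/- (red) and treated Lipa-/- mice (blue) at 12 and 34 weeks, filled where the adjusted p was under 0.05, with a line at the list's median. In Lipa-/- mice the PPARA list is mostly filled and left of 0 at both times, with Slc27a1 the 1 filled gene to the right, while in treated mice of 34 weeks at most 2 genes of any list are filled.

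Other nuclear receptors were tested as well. Of 32, 7 fell and 2 rose in Lipa-/- mice at 12 weeks and 16 fell and 2 rose at 34 weeks, with medians of -0.4 and -0.7, beside 0.02 and -0.03 over all tested genes. These 9 and 18 of 32 stand beside 39.2% and 47.3% of all tested genes that passed. Esrrg, a relative of Esrra, had 1.233 to 2.408 CPM in WT and at most 0.0808 CPM in Lipa-/- mice at 12 weeks. Rarg rose by 1.66 ± 0.58 and 1.6 ± 0.58. The vitamin D receptor Vdr, named after its values were seen, was at 0 in all WT mice of 12 weeks and at 1.029 to 1.766 CPM in Lipa-/- mice of 34 weeks. These are groups of different times, so genotype, time and study code cannot be told apart in this pair. Counts of falls depended on scale, with 1 of 32 at 12 weeks on TPM and 7 of 32 at 34 weeks on TPM or total counts. They were 4 at 12 weeks without Lipa-/- mouse 9 and 9 at 34 weeks without Lipa-/- mouse 4. In treated mice 11 were lower and 1 higher than in WT at 12 weeks, where 36.8% of all tested genes passed and 17.5% were lower. However, leaving out WT mouse 3 left 3 lower, leaving out WT mouse 1 left 6, and leaving out mouse 10 or 11 of the treated group left 5 or 7. Of 17 coregulators, 0 passed in Lipa-/- mice at 12 weeks in edgeR, where 1 had an unadjusted p under 0.05 and DESeq2 called 2, and 1 rose at 34 weeks, Pprc1 (log2 1.1 ± 0.35), though 0 did without Lipa-/- mouse 5. In treated mice of 12 weeks 6 of the 17 coregulators were lower than in WT, among them Pprc1 (log2 -1.35 ± 0.37), beside 17.5% of all tested genes. Only 1 coregulator was lower without WT mouse 3 and 3 were without treated mouse 10 or 11.

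In treated mice of 34 weeks, edgeR called 0 genes against WT among the targets of AHR, ESRRA, NR3C1, PXR and THRB, the other nuclear receptors, the chaperones and the coregulators. Of all tested genes 0.22% passed this comparison, so 0 calls in lists of this size is near that share. At an unadjusted p under 0.05 there were 4 among the 11 PXR targets, 1 in each of the AHR, ESRRA, NR3C1 and THRB lists and among the other nuclear receptors, and 0 among the chaperones and coregulators. DESeq2 called 1 PXR target and 0 in the other lists.

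Time was tested within each genotype. In WT mice 0 receptors passed between 34 and 12 weeks in edgeR and DESeq2, with 2 at an unadjusted p under 0.05 (Pparg, log2 1.26 ± 0.41, and Ahr, log2 0.66 ± 0.21), where 0.33% of genes passed. In Lipa-/- mice 0 passed by either tool and 1 had an unadjusted p under 0.05 (Nr1i3, log2 -1 ± 0.39), where 0.523% of genes passed. In treated mice 5 were higher at 34 weeks, namely Ppard, Rxra, Pparg, Ppara and Ahr, where 45.2% of genes passed and 23.9% were higher.

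Among 12589 tested genes with at least 1 CPM on average, the ones whose log2 CPM followed each receptor most closely over the 18 mice were Marchf6 (r = 0.961) and Olig1 (r = 0.96) for Ppara, Ganab (r = 0.97) and Ube4a (r = 0.966) for Thrb, and Plppr2 (r = 0.928) and Supt5 (r = 0.924) for Ppard. They were Vps35l (r = 0.944) and Cenpb (r = 0.937) for Pparg, Vps13d (r = 0.967) and Usp47 (r = 0.966) for Rxra, and Itch (r = 0.957) and Trip4 (r = 0.951) for Nr3c1. For the xenobiotic receptors they were Saa4 (r = 0.859) and Cyp3a25 (r = 0.835) with Nr1i3, Lrit2 (r = 0.912) and Pink1 (r = 0.903) with Nr1i2, and Zfp775 (r = 0.86) and Eif2ak4 (r = 0.854) with Ahr, and for Esrra they were Cmc2 (r = 0.916) and Exosc4 (r = 0.912). The values share libraries, group differences and scaling, and are a description.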

How the data were processed

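Liver RNA of 18 mice was selected for poly(A) and sequenced. The authors ran Salmon on the GRCm39 transcriptome, brought its estimates to gene level in tximport, and deposited 3 values per gene and mouse: estimated counts (not whole in 19.4% of values, rounded here), TPM and effective length. Their own comparison table, which holds fold changes and p-values, was not used. The labels also name R 4.3.0 and DESeq2 1.40.1. Genes with more than 100 reads over all mice were tested in edgeR 4.0.16 (R 4.3.3) with TMM factors (0.587 to 1.69), 6 group means, quasi-likelihood tests and Benjamini-Hochberg adjustment. Fold changes are on the CPM scale. The alternatives were other scalings, length offsets in edgeR and DESeq2 1.42.0, limma 3.58.1 on log2(TPM + 0.1), other filters, fits of only the groups compared, other thresholds and leaving out each mouse. A fit without the trend with GC content and length was added after the data were seen. Simulated counts were used to test some of the fits, not every alternative. Length offsets that differ between mice were not tested in this way. Standard errors come from the quasi-likelihood fit and include the spread between mice, while floors cover counting error only. Within WT the mouse number repeats at both times, but the mice differ. Each mouse is 1 sample. The receptors, target lists and rules were chosen with earlier results of these data known. Named genes are all 10 receptors, in each list the up to 2 passing genes with the largest rise and the 2 with the largest fall in Lipa-/- mice at each time (mean CPM of 1 or more), and the 2 genes most alike to each receptor. Other genes named were chosen after their values were seen. Some genes of the lists are counted but not reported here by name.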

Additional observations from a re-analysis of the deposited data

Results flagged for a closer look

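Ppard was the 1 receptor whose difference between treated and WT mice differed between the times by a test of that difference. The log2 fold change was -2.92 ± 0.64 at 12 weeks and 0.85 ± 0.57 at 34 weeks, and their difference was 3.77 ± 0.86 (edgeR adjusted p = 0.0239), where 19.6% of tested genes passed this test. It did not pass without WT mouse 1 or 3 of 12 weeks, WT mouse 1 of 34 weeks or treated mouse 9 of 34 weeks, where Ppard was at 45.2 CPM. Time and study code cannot be told apart.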

How the results depend on the processing

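Of 1780 values of the receptors under other settings, 1513 were classed as the same and 145 as moved. Another 67 lost the threshold, 37 gained it and 18 were classed as reversed in sign. Signs also changed in values that passed in neither fit, such as Ppara in treated against WT mice at 34 weeks, and these are not among the 18. Total-count scaling moved the median of all genes by 0.47 and 0.63 in Lipa-/- against WT mice at 12 and 34 weeks, by -0.39 and 0.08 in treated against WT mice and by -0.86 and -0.54 in treated against untreated mice (log2), so changes are to be read relative to it. Depth and 3 mice a group limit small differences, and the causes of the changes below were not tested.

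The sign turned in 18 values that passed the threshold in the main fit or under the other setting. At 34 weeks in Lipa-/- against WT mice Esrra came to 0.0109 with total counts and 0.0756 on TPM, and Nr3c1 to 0.0511 and 0.0611. In treated mice of 12 weeks Ppara against WT came to 1.66 in DESeq2, 1.61 in edgeR with length offsets and 0.96 on TPM. Against untreated mice of 12 weeks, TPM gave -0.89 for Nr1i2, -0.70 for Esrra, -0.0732 for Thrb and -0.72 for Nr3c1, and total counts gave -0.43 for Nr3c1. For Ppara from 12 to 34 weeks in treated mice DESeq2, length offsets and TPM gave -1.46, -1.40 and -0.43, and for its difference between the times against WT -2.02, -1.97 and -1.17.

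Counts of receptors past the threshold moved as follows. In Lipa-/- against WT mice at 12 weeks they were 2 on TPM and 2 at an adjusted p under 0.01 instead of 4 (3 to 4 without any 1 mouse), and at 34 weeks 3 with the study's rule instead of 6 (4 to 6). In treated against WT mice at 12 weeks they were 5 on TPM and 1 at 0.01 instead of 2 (1 to 2), and against untreated mice 8 on TPM and 3 at 0.01 instead of 5 (3 to 5, with 3 without treated mouse 12). At 34 weeks against untreated mice they were 4 (3 to 5). In treated mice over time they were 2 with only the groups compared, 2 at 0.01 and 3 with the study's rule instead of 5. They were 3 without treated mouse 10, 11 or 12 of 12 weeks and 2 without mouse 9 or 11 of 34 weeks. For the difference of the treated effect between the times they were 2 with total counts, 3 in DESeq2, 2 with length offsets, 3 on TPM, 2 with the GC and length trend removed, 0 with only the groups compared and 0 at 0.01 instead of 1. They were 0 where the mouse left out was WT mouse 1 or 3 of 12 weeks, or WT mouse 1 or treated mouse 9 of 34 weeks, and 2 where it was WT mouse 2 of 12 weeks or treated mouse 12 of 34 weeks.

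WT mice share numbers at both times. With the mouse number as a replicate block, 0 receptors passed over time in WT mice, and 1 gene passed instead of 48. The deviations of same-numbered mice correlated at 0.0763, -0.24 and 0.46, and those of mice with different numbers at -0.506 to 0.425. So few values cannot decide whether the numbers pair the mice. By the study's methods livers were taken from killed mice, so mice with the same number are not the same animals.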
